A study of Mus musculus with 6 samples.

Results

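Macrophage genes were followed in RNA-seq counts from mouse palatal shelves, as 10 genes chosen by a list of tissue macrophage markers: Csf1r, Mrc1, Aif1, Cd68, Cx3cr1, C1qa, C1qb, C1qc, Lyve1 and Ptprc. All 10 symbols were among the 23366 genes of the count files, and all 10 passed the filter on low counts that left 14233 genes for testing. The samples were palatal shelf pairs from E14.25 embryos, 3 labelled wild type (WT, replicates 2, 3 and 4) and 3 labelled Kmt2dfl/fl Wnt1-Cre (KO, replicates 1, 2 and 3). In the KO embryos the Wnt1 driver directs Cre recombinase to the neural crest, so that floxed Kmt2d, a gene for a histone H3 lysine methyltransferase, is deleted in crest-derived cells. The labels do not say whether the WT embryos carried floxed alleles or Cre, and nothing in them names litters, sexes or batches. The comparison asks how the RNA of these genes in the whole shelf differed between the genotypes.

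Tissue macrophages are phagocytes that settle in embryonic organs before birth. They descend from blood progenitors of the yolk sac and fetal liver, not from the neural crest, and they depend on signals through the CSF1 receptor. In developing connective tissue they clear dying cells, and many are placed along blood vessels and nerves. In a bulk sample, fewer macrophages and less of a macrophage RNA per cell cannot be told apart.

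Mrc1 was lower in the KO shelves than in the WT shelves by about the factor 2.06, and no other macrophage gene came as close to the threshold of significance. Of the 10 genes, 9 had a negative log2 fold change (KO over WT), against 48.5% of all genes tested, and the exception was Cd68. Their median was -0.59, beside 0.011 over all genes tested. None passed the test across all genes: 0 of 10 had an adjusted p under 0.05 in edgeR's quasi-likelihood test, where 0.534% of all genes did and 0.436% were lower past it. At an unadjusted p under 0.05, 3 of 10 were lower (Mrc1, Csf1r and Aif1), against 6.69% of all genes. In 5 of 10 (those 3 with Cx3cr1 and C1qa), each KO library lay below each WT library, a separation found in 11.2% of all genes. These genes were put forward with earlier results of the same data known, so the counts describe them and are no independent evidence.

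KO replicate 2 stood apart from the other libraries, and results are given with and without it. Gene counts per library were 20785074 to 24916079 in the WT and 12721979 to 20203309 in the KO, lowest in KO replicate 2, where 47.5% of the listed read pairs fell outside genes against 12.3% to 18.1% elsewhere. The 10 genes together drew 1583 to 2207 counts per WT library and 563 to 929 per KO library, so counting error is larger in the KO. KO replicates 1 and 3 differed from the WT in other ways: the ribosomal RNA gene Rn45s took 35.1% and 30.0% of their gene counts against 16.2% to 20.7% in the WT and 18.6% in KO replicate 2, Lars2 took 3.23% and 2.65% against 1.20% to 1.48% in the WT and 1.65% in KO replicate 2, and 30.3% and 27.7% of listed pairs aligned to several places against 18.4% to 20.99% in the WT and 18.1% in KO replicate 2. Without Rn45s and Lars2 in the library sizes, 9 of 10 genes were still negative and Mrc1 passed (adjusted p = 0.0462). The whole-gene count of Kmt2d, listed as Mll2, was 171 to 211 CPM (counts scaled to the normalised library size) in the WT and 193 to 539 CPM in the KO, highest in KO replicate 2. Such a count includes exons outside a deletion and cells outside the crest, and so does not check the KO labels. Markers of palatal mesenchyme such as Prrx1 and Pdgfra and of epithelium such as Epcam were present in all 6 libraries. Without KO replicate 2, 9 of 10 genes were still negative (46.7% of all genes), their median was -0.41, and 6 of 10 had both KO libraries below all WT libraries (16.6% of all genes). In that comparison 1 of 10 fell past the threshold, Mrc1, against 2.12% of all genes past it in either direction and 1.57% lower.

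Promoter sequences are shown for Mrc1, the gene with the clearest difference, for C1qb and C1qc, neighbours in 1 gene cluster, and for Cd68, the gene with a positive log2 fold change. Windows of 300 bases from RefSeq (GRCm38.p6) run from 250 bases before the start site to 50 bases after it, and 7 of the 10 symbols matched the table, with 8 windows. Capitals mark GAGGAA or its reverse complement TTCCTC, the core bound by PU.1, a transcription factor of the myeloid lineage. These letters hold GGAA, the core shared by the ETS family to which PU.1 belongs. Mrc1 lies at chr2:14229164-14229463 on the plus strand, C1qb at chr4:136886151-136886450, C1qc at chr4:136892865-136893164 and Cd68 at chr11:69666121-69666420, these 3 on the minus strand.
Mrc1: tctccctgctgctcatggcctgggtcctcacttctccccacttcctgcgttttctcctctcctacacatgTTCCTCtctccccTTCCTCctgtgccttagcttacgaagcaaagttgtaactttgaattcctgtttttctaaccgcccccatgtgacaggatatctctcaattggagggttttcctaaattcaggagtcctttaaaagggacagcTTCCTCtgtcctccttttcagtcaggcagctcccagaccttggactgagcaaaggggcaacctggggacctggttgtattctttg
C1qb: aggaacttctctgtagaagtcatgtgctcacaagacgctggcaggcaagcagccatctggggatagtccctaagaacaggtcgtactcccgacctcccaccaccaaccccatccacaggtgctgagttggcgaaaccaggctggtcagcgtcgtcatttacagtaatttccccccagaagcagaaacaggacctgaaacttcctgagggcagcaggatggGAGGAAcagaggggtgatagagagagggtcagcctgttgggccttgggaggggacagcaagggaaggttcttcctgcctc
C1qc: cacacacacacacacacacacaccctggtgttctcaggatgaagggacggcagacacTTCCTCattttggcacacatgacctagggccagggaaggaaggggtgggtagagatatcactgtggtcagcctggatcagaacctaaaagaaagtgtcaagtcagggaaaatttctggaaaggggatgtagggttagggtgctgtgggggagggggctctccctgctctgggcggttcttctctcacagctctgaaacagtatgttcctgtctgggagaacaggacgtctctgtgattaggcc
Cd68: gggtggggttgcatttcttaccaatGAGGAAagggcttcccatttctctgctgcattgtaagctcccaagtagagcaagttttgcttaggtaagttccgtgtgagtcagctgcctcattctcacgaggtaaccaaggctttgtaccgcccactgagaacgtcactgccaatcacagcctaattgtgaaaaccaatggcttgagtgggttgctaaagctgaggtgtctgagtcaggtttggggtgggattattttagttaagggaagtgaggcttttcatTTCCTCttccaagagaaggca
On either strand the core occurred in 6 of the 8 windows, those of Aif1, C1qb, C1qc, Cd68 and Mrc1 and 1 of the pair for Ptprc, and in 28.3% of all 32817 promoter windows. The Mrc1 window held it at 3 places, beginning at positions -180, -167 and -35 from the start site, and the Cd68 window at -225 and 30. It was thus found both in the window of the gene with the clearest difference and in that of the gene that was not lower. The letters TATAAA or TTTATA, searched on both strands, were in 1 of the 8 windows, of Ptprc, and in 13.6% of all windows. A match describes the letters of the reference and is not a measured binding site.

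**Figure D1:**
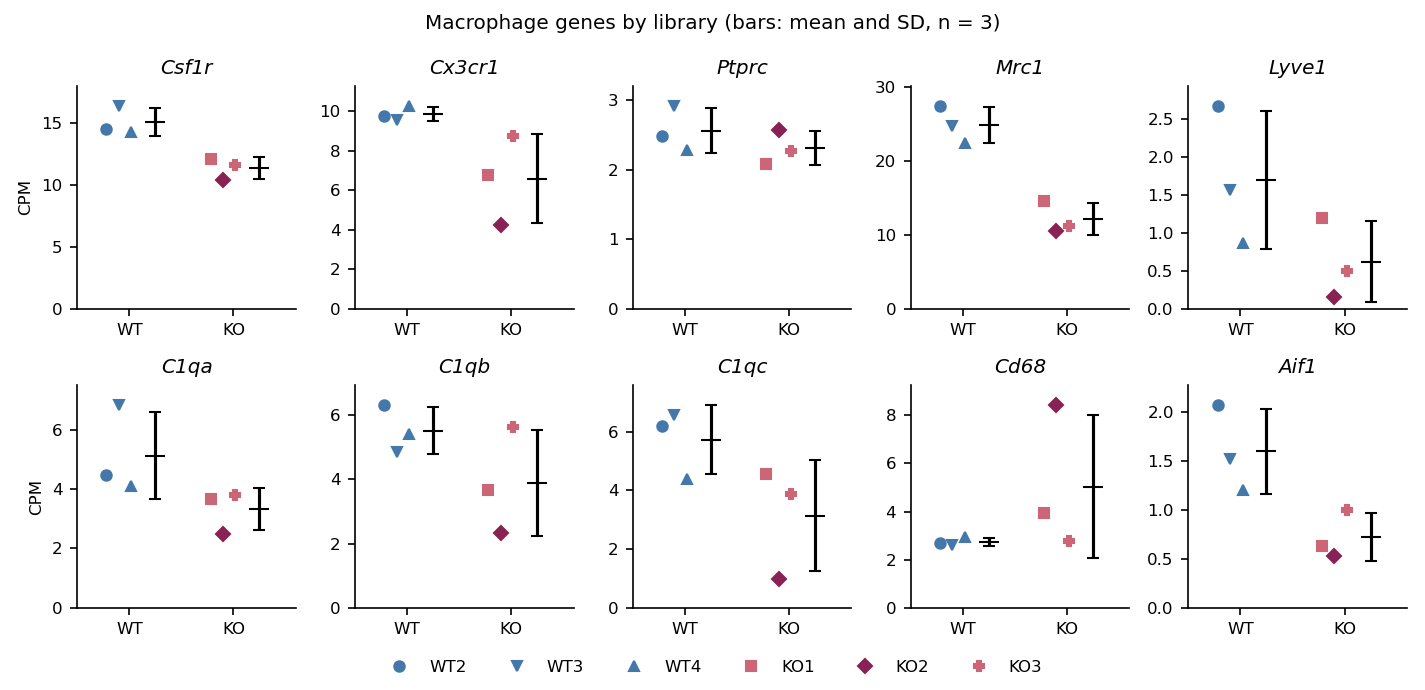
Level in CPM (y axis) of each of the 10 macrophage genes in the 3 WT and 3 KO libraries, with the mean and SD of each group beside the points; the digit in each library name is its replicate number. Mrc1 lies between 22.5 and 27.4 CPM in the WT and between 10.5 and 14.6 CPM in the KO, whereas Cd68 reaches 8.40 CPM in KO replicate 2 (KO2).

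Among the receptors, Csf1r and Cx3cr1 were lower in every KO library, and Ptprc overlapped between the groups. Csf1r, the receptor for CSF1 and IL-34 that macrophages need to survive, measured 14.5, 16.3 and 14.2497 CPM in WT replicates 2, 3 and 4 and 12.1, 10.4 and 11.5 CPM in KO replicates 1, 2 and 3. The groups did not overlap, and the libraries within each lay close together. The log2 fold change was -0.40 (SE 0.14), with an unadjusted p = 0.0205 and an adjusted p = 0.292 (edgeR), and it was -0.35 without KO replicate 2. Cx3cr1, the receptor for fractalkine on macrophages and microglia, measured 9.75, 9.54 and 10.2 CPM in the WT and 6.77, 4.24 and 8.73 CPM in the KO. The WT libraries were tight and the KO libraries spread out, with KO replicate 3 near the WT. The log2 fold change was -0.57 (SE 0.26, adjusted p = 0.362) and -0.35 without KO replicate 2. Ptprc, which encodes the leukocyte phosphatase CD45, measured 2.49, 2.91 and 2.28 CPM in the WT and 2.09, 2.57 and 2.26 CPM in the KO. Its groups overlapped through KO replicate 2 alone, the highest KO library. The log2 fold change of Ptprc was -0.15 (SE 0.25, adjusted p = 0.794) with 6 libraries and -0.24 without KO replicate 2.

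Mrc1 and Lyve1 are scavenger-type receptors that mark macrophages near vessels and are also made by lymphatic endothelium. With 6 libraries both had fitted folds (WT over KO) above 2, as did Aif1 (2.18). Mrc1, the mannose receptor CD206, measured 27.4, 24.8 and 22.5 CPM in WT replicates 2, 3 and 4 and 14.6, 10.5 and 11.2 CPM in KO replicates 1, 2 and 3. The gap between the groups exceeded the range within either of them. The means were 24.9 ± 2.47 CPM (SD, n = 3) and 12.1 ± 2.16 CPM (SD, n = 3), and the fitted log2 difference was -1.04 (SE 0.16, adjusted p = 0.0528, edgeR). Without KO replicate 2 the log2 fold change was -0.96 (SE 0.15, adjusted p = 0.011), so the difference passed the threshold there. Mir511, a microRNA gene inside Mrc1 that was counted separately, had 1 count in KO replicate 1 and 0 in the other 5 libraries. These were mRNA libraries, so the counts do not measure the mature microRNA. Lyve1, a hyaluronan receptor, measured 2.67, 1.57 and 0.861 CPM in the WT and 1.20, 0.151 and 0.497 CPM in the KO. Both groups were wide, and KO replicate 1 lay inside the WT range. The value in KO replicate 2 rested on 2 counts, with an exact 95% Poisson interval of 0.0183 to 0.547 CPM that covers counting error only. Lyve1 came to -1.44 on the log2 scale with a large error (SE 0.66, adjusted p = 0.372) and to -1.07 without KO replicate 2. With other libraries left out it ranged from -2.29 (without KO replicate 1) to -0.94 (without WT replicate 2).

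The C1q genes encode the 3 chains of the complement protein C1q, which binds dying cells and immune complexes and is made mainly by macrophages. They lie next to each other on chromosome 4, and each had a negative log2 fold change. C1qa measured 4.48, 6.81 and 4.09 CPM in the WT and 3.67, 2.50 and 3.81 CPM in the KO. Its groups did not overlap, but WT replicate 4 and KO replicate 3 were close. C1qb measured 6.30, 4.84 and 5.42 CPM in the WT and 3.67, 2.35 and 5.63 CPM in the KO. KO replicate 3 was above both WT replicates 3 and 4, so the groups overlapped. C1qc measured 6.19, 6.59 and 4.39 CPM in the WT and 4.56, 0.984 and 3.87 CPM in the KO. KO replicate 2 was far below the other KO libraries for C1qc, with 13 counts and an exact 95% Poisson interval of 0.524 to 1.68 CPM. The log2 fold changes were -0.61 for C1qa (SE 0.29, adjusted p = 0.378), -0.49 for C1qb (SE 0.32, adjusted p = 0.488) and -0.85 for C1qc (SE 0.46, adjusted p = 0.423). Without KO replicate 2 they were -0.46, -0.25 and -0.46, so the value of C1qc was then that of C1qa. The distances between the chains were not tested.

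**Figure D2:**
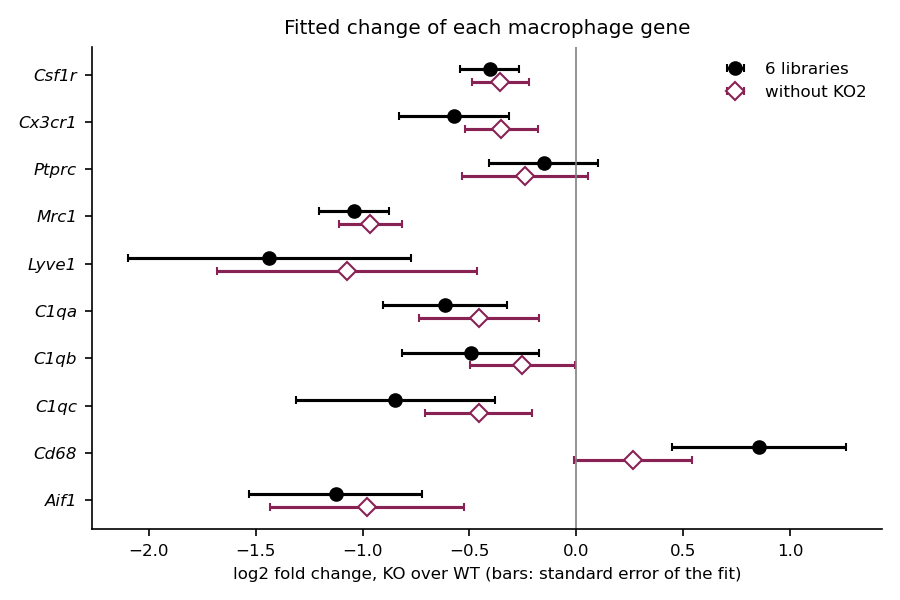
Fitted log2 fold change (x axis, KO over WT, bars are the standard error) of each of the 10 genes with all 6 libraries (filled) and without KO replicate 2 (open). Only Cd68 lies to the right of 0, at 0.85 and at 0.27 without that library, and Mrc1 moves little, from -1.04 to -0.96.

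The intracellular markers Aif1 and Cd68 had fitted differences of opposite sign. Aif1, also called IBA1, is an actin-binding protein of macrophage ruffles, and it measured 2.06, 1.52 and 1.21 CPM in the WT and 0.633, 0.530 and 0.994 CPM in the KO. No KO library reached the lowest WT library, but the KO values rested on 7 to 18 counts each. The log2 fold change of Aif1 was -1.12 (SE 0.41, adjusted p = 0.314), and -0.98 without KO replicate 2. Cd68, a glycoprotein of late endosomes and lysosomes, measured 2.71, 2.60 and 2.93 CPM in the WT and 3.92, 8.40 and 2.76 CPM in the KO. KO replicate 2 stood at 306% of the WT mean, while KO replicate 3 was inside the WT range. The log2 fold change of 0.85 (SE 0.41, adjusted p = 0.381) was 0.27 without KO replicate 2. Coding genes near Cd68 went both ways in that library. The nearest on each side were lowest there: Mpdu1 stood at 16.9 CPM against 19.003 to 21.02 CPM in the others, and Eif4a1 at 527 CPM against 701 to 811 CPM. Further off, Senp3 was lowest too, at 81.7 CPM against 85.7 to 98.5 CPM, and Tnfsf13 lay within the range of the others. Fxr2 was highest there, at 84.7 CPM against 66.4 to 76.1 CPM, as was Sox15, at 0.378 CPM against at most 0.0896 CPM. The part of the high share of pairs outside genes in the Cd68 value of KO replicate 2 was not tested.

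**Figure D3:**
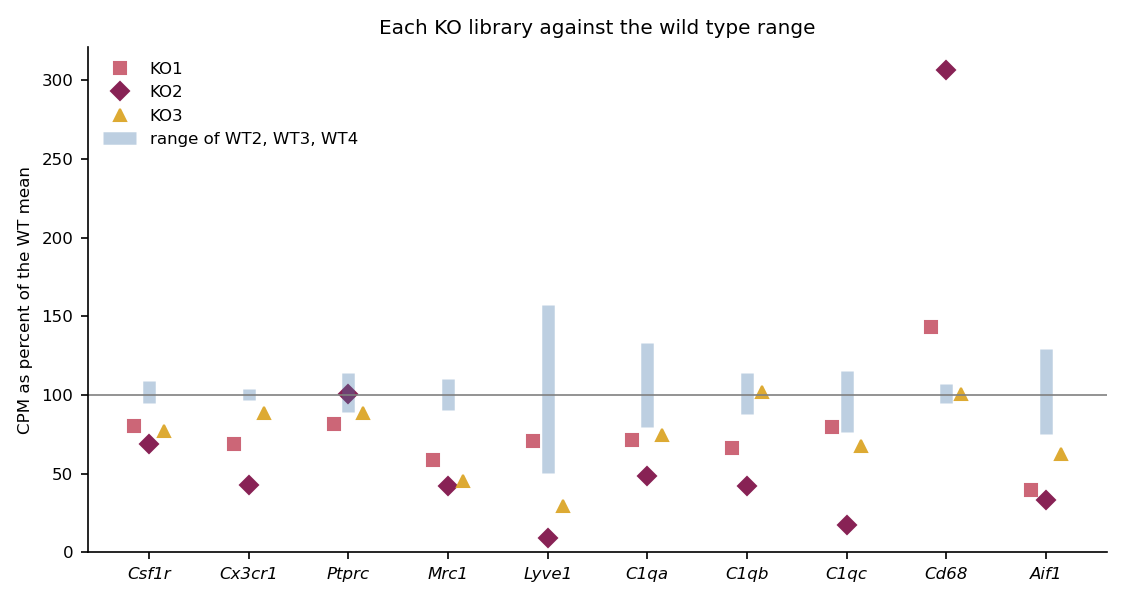
CPM of each KO library as a percent of the WT mean (y axis), with the range of the 3 WT libraries as a band. KO replicate 2 is the lowest KO library for 8 genes and the highest for Cd68 (306%) and Ptprc (100.4%), and all 3 KO libraries lie between 42.3% and 58.5% for Mrc1.

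On a scale of CPM per kilobase of the longest coding transcript, the order of the genes differed between the groups. In the WT the highest levels were those of C1qb (5.07 ± 0.676 CPM per kilobase, SD, n = 3), C1qa (4.93 ± 1.41), C1qc (4.76 ± 0.973) and Mrc1 (4.63 ± 0.459), which did not differ beyond their spread. They were followed by Csf1r (3.19 ± 0.240), Cd68 (2.23 ± 0.136), Cx3cr1 (2.19 ± 0.0802) and Aif1 (1.83 ± 0.496), of which the last 3 overlapped in spread. Lyve1 (0.587 ± 0.315) and Ptprc (0.505 ± 0.0633) were lowest and also overlapped. In the KO, Mrc1 stood at 2.25 ± 0.401 CPM per kilobase, next to Csf1r at 2.41 ± 0.187, whereas in the WT their spreads were apart. Cd68 had the highest KO mean, 4.09 ± 2.42, with the widest spread, and that place rests on KO replicate 2. Over the other KO libraries Cd68 averaged 2.72 CPM per kilobase, below C1qb (4.28), C1qa (3.60) and C1qc (3.50).

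Mrc1 counts were also lower in each KO library when related to the Csf1r counts of the same library, a ratio that does not depend on library size. There were 1.89, 1.52 and 1.58 Mrc1 counts per Csf1r count in WT replicates 2, 3 and 4 and 1.20, 1.01 and 0.971 in KO replicates 1, 2 and 3. The lowest WT ratio was above the highest KO ratio, and the mean log2 ratio differed by -0.64 (KO minus WT). A two-sided exact permutation test gave p = 0.1, the smallest value that 3 against 3 libraries allow, and 0.45 when adjusted over the 9 ratios computed. With any 1 library left out the Mrc1 difference stayed between -0.74 and -0.55. Cd68 per Csf1r was 0.187, 0.159 and 0.205 in the WT and 0.325, 0.810 and 0.239 in the KO, higher in each KO library (exact permutation p = 0.1, adjusted p = 0.45). For the other 7 genes the ratios overlapped, with exact permutation p from 0.2 to 0.7 before adjustment. Among these, the mean log2 ratios of Lyve1, Aif1 and C1qc differed by more than that of Mrc1, at -1.24, -0.72 and -0.70, with a wider spread between libraries. Those of Cx3cr1, C1qa and C1qb differed by -0.23, -0.20 and -0.18, and that of Ptprc by 0.26. The C1qb difference was 0.075 without KO replicate 2.

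**Figure D4:**
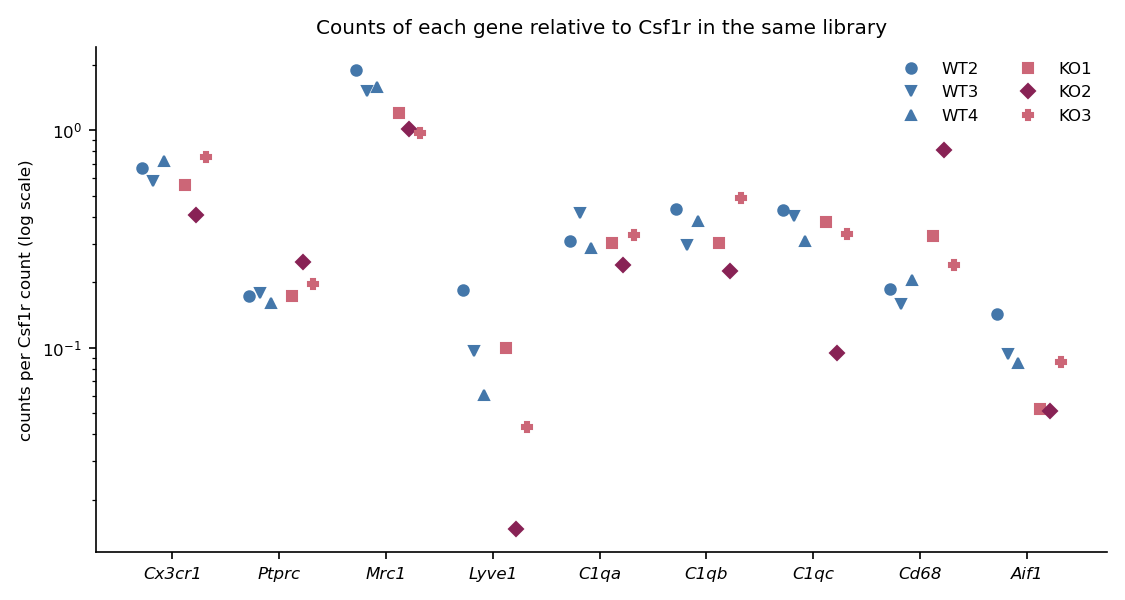
Counts of each gene per count of Csf1r in the same library (y axis, log scale) for the 3 WT and 3 KO libraries. The groups are apart for Mrc1, from 1.52 to 1.89 in the WT and from 0.971 to 1.20 in the KO, and for Cd68, and they overlap for the other 7 genes.

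Other macrophage genes showed no change past the threshold in edgeR with 6 libraries. Of 30 in the list, 24 could be tested, and 0 rose and 0 fell (4 lower, against 6.69% of all genes, and 1 higher at an unadjusted p under 0.05). Negative log2 fold changes were found for 19 of 24, against 48.5% of all genes, with a median of -0.35. In 7 of 24 (Stab1, F13a1, Fcgr3, Cybb, Lyz2, Pf4 and Lgmn) all KO libraries lay below all WT libraries, against 11.2% of all genes. In 2 of 24, Itgam and Cd84, all KO libraries lay above (12.3% of all genes). Itgam, the integrin chain CD11b, measured 1.46, 1.12 and 1.33 CPM in the WT and 2.40, 1.66 and 1.88 CPM in the KO (adjusted p = 0.395). Cd14 and Trem2, too low to be tested, were also higher in each KO library, at most 1.14 and 0.829 CPM. The smallest p was that of Stab1, the scavenger receptor stabilin-1 of macrophages and sinusoidal endothelium, which measured 48.6, 47.0 and 37.8 CPM in the WT and 33.0, 28.6 and 29.2 CPM in the KO (log2 fold change -0.55, adjusted p = 0.172, and 0.0244 with DESeq2). The others in this paragraph were named after their values were seen. F13a1, the coagulation factor XIII chain of resident macrophages, had a log2 fold change of -0.91 (adjusted p = 0.235). Emr1, the gene of the F4/80 antigen now named Adgre1, measured 4.09, 5.15 and 3.23 CPM in the WT and 3.61, 1.66 and 2.98 CPM in the KO, with overlapping groups. Sfpi1, the gene of PU.1 now named Spi1, also overlapped, at 1.30 to 2.24 CPM in the WT and 0.908 to 1.71 CPM in the KO. Cd84, a leukocyte adhesion receptor, was like Cd68 highest in KO replicate 2, at 12.4 CPM against 1.94 to 3.67 CPM in the other 5 libraries.

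In the list of microglia-enriched genes 0 rose and 3 of 8 tested fell, where 0.436% of all genes were lower past the threshold. These 3 are also genes of connective tissue. Tmem119, a membrane protein also made in the osteoblast lineage, measured 52.0, 57.7 and 49.7 CPM in the WT and 10.9, 13.4 and 9.61 CPM in the KO, with -2.23 on the log2 scale (adjusted p = 0.00609). Sparc, a collagen-binding matrix protein, fell by 0.998 on the log2 scale (adjusted p = 0.0212), and Sall1, a zinc finger transcription factor also found in embryonic mesenchyme, by 1.58 (adjusted p = 0.0436). Siglech was at most 0.249 CPM, and P2ry12 and Gpr34, receptors typical of microglia, were at most 1.03 and 1.12 CPM in any library. Sall1 measured 5.20 to 6.72 CPM in the WT and 1.71 to 2.19 CPM in the KO. Olfml3, also lower in each KO library, measured 62.5, 57.9 and 50.7 CPM in the WT and 39.6, 38.7 and 37.1 CPM in the KO. Its adjusted p was 0.104 (edgeR, 6 libraries). The cell source of the 3 falls was not tested. All 3 falls are from the comparison with 6 libraries, and all 3 also passed without KO replicate 2. In that fit 4 of 8 fell, with Olfml3 (adjusted p = 0.0235, edgeR), against 1.57% of all genes lower. Olfml3 also passed with DESeq2 (adjusted p = 0.00307). With limma voom and with the replicate block 2 passed, Tmem119 and Sparc, and Sall1 did not. The calls were lost without WT replicate 2 or without WT replicate 3, where 0 of the list and 0 of all genes passed. Of the list, 1 passed without WT replicate 4, KO replicate 1 or KO replicate 3, where 3, 20 and 11 of all genes did.

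No ligand or partner of these genes passed in edgeR with 6 libraries, and Cxcl12 and Serping1 passed with DESeq2 (adjusted p = 0.000797 and 0.000666). Csf1, the ligand of Csf1r, measured 23.5, 17.4 and 13.8 CPM in the WT and 16.8, 15.3 and 12.2 CPM in the KO, and the second ligand, Il34, was at most 0.380 CPM. Cx3cl1, the ligand of Cx3cr1, measured 8.12, 9.72 and 9.26 CPM in the WT and 8.98, 4.77 and 7.51 CPM in the KO. The groups overlapped for both ligands. Cxcl12, a chemokine of mesenchyme that attracts blood cells, had the smallest p of its list of 6 genes, at 234, 238 and 292 CPM in the WT and 511, 371 and 421 CPM in the KO. Its log2 fold change was 0.77 (adjusted p = 0.112), and without KO replicate 2 it was 0.86 and passed (adjusted p = 0.00978). Of 11 complement genes tested, 0 rose and 0 fell (edgeR, 4 lower at an unadjusted p under 0.05, against 6.69% of all genes), and the median was -0.57. Negative log2 fold changes were found for 9 of 11, against 48.5% of all genes. In 6 of 11 all KO libraries lay below all WT libraries (11.2% of all genes). Serping1, the inhibitor of the C1 proteases, measured 10.04, 8.38 and 10.1 CPM in the WT and 5.06, 4.39 and 4.81 CPM in the KO (adjusted p = 0.0751, and 0.0318 without KO replicate 2). Of 16 lysosome genes, which all cells express, 0 rose and 0 fell (0 at an unadjusted p under 0.05), with a median of -0.11, and Psap, which encodes prosaposin, had the smallest p (log2 fold change -0.27, adjusted p = 0.385).

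Cells that share blood, vessel or receptor genes with macrophages were measured in the same libraries. Of 12 endothelial genes 0 rose and 0 fell (edgeR, 6 lower at an unadjusted p under 0.05, against 6.69% of all genes), with a median of -0.32 and negative values in 11 of 12, against 48.5% of all genes. Their summed level was 335 to 363 CPM in the WT and 264 to 313 CPM in the KO, so it moved in the same direction as Csf1r. Esam, an endothelial adhesion molecule, had the smallest p (log2 fold change -0.53, adjusted p = 0.26), and Pecam1 (CD31) one of -0.29 (adjusted p = 0.317). Of 7 lymphatic endothelial genes tested, which bear on Mrc1 and Lyve1, 0 rose and 0 fell, with a median of -0.29. At an unadjusted p under 0.05, 2 of 7 (Pdpn and Mmrn1) were lower, against 6.69% of all genes. Their summed level overlapped, at 251 to 343 CPM in the WT and 271 to 335 CPM in the KO. Prox1, the regulator of lymphatic identity, measured 13.2, 16.6 and 11.02 CPM in the WT and 8.67, 16.6 and 8.29 CPM in the KO, and Ccl21a had 0 counts in all 6 libraries. The Prox1 groups overlapped through KO replicate 2 alone. The log2 fold change of Prox1 was -0.29 with 6 libraries and -0.69 without KO replicate 2 (adjusted p = 0.112, edgeR). Without that library 7 of 7 genes of the list were negative, against 46.7% of all genes, with a median of -0.45. Most of the summed level was Nrp2, a semaphorin and VEGF receptor that other cells also make, at 171 to 258 CPM. The smallest p of that list was that of Pdpn, the mucin podoplanin, with a log2 fold change of -0.67 (adjusted p = 0.145, and 0.00993 with DESeq2). Mmrn1 had a log2 fold change of -0.47 (adjusted p = 0.278, edgeR), and both genes were lower in each KO library. The part of endothelial cells in the Mrc1, Lyve1 and Csf1r values was not tested.

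**Figure D5:**
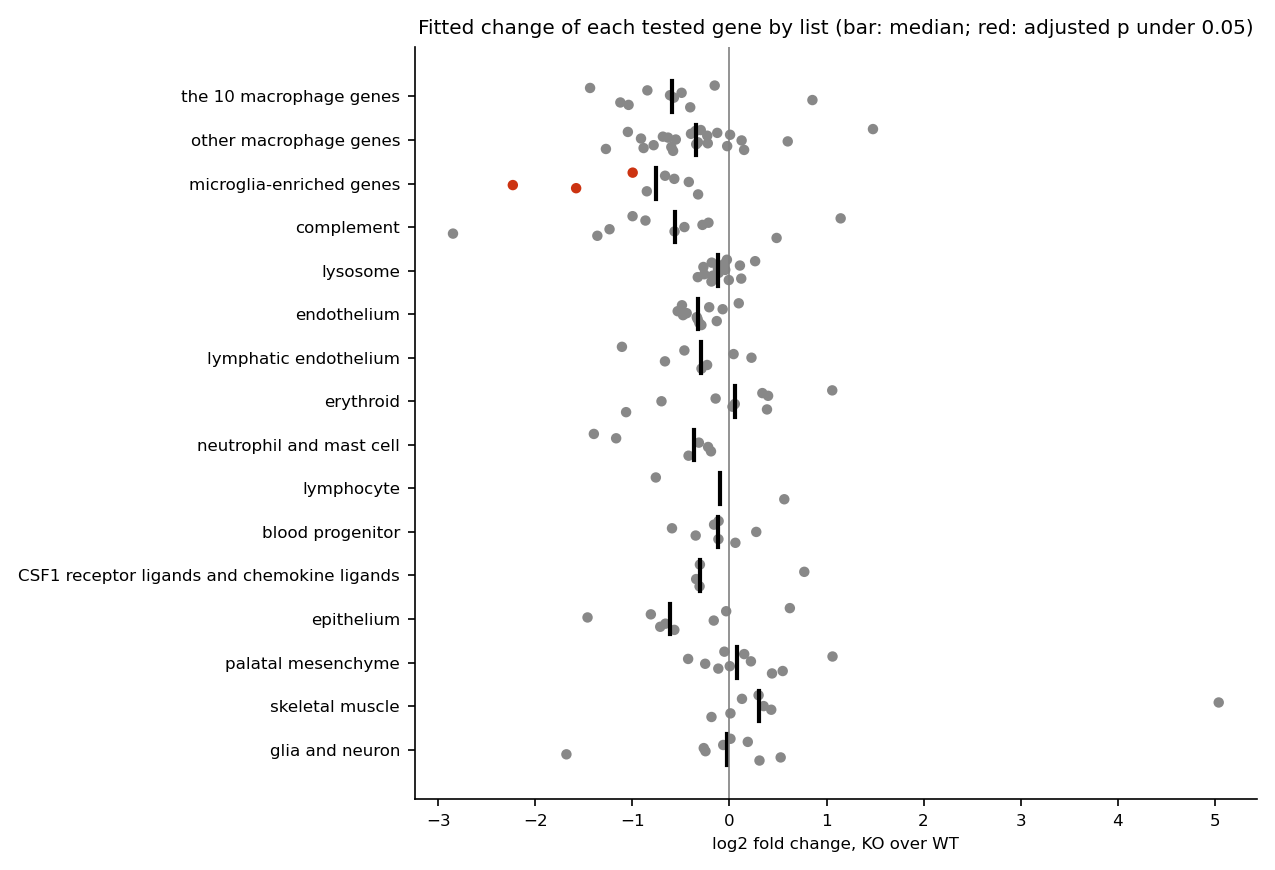
Fitted log2 fold change (x axis, KO over WT) of each tested gene in the 10 macrophage genes and the 15 other lists, with the median of each list as a bar and genes with an adjusted p under 0.05 in red. The only red points are Tmem119, Sall1 and Sparc among microglia-enriched genes, and the median of the 10 macrophage genes is -0.59.

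Genes of other blood cells were low or variable, and 0 of these lists passed with 6 libraries in edgeR. At an unadjusted p under 0.05, 0 of 9 erythroid genes differed. At that level 1 of 6 neutrophil and mast cell genes and 1 of 7 progenitor genes were lower, against 6.69% of all genes. In the same fit 1 of 2 lymphocyte genes was higher, against 1069 of all 14233 genes. Summed erythroid genes ranged from 559 to 1071 CPM in the WT and from 284 to 1485 CPM in the KO, lowest in KO replicate 2, and Hbb-b1 had the smallest p (adjusted p = 0.389). Hba-a1 had 0 counts in all libraries, and reads that align to several gene copies were set aside in the counting. Of 14 neutrophil and mast cell genes 6 could be tested, and Cpa3, a mast cell protease, measured 1.21, 1.93 and 1.12 CPM in the WT and 0.759, 0.454 and 0.387 CPM in the KO (adjusted p = 0.278). Of 12 lymphocyte genes 2 could be tested. Lck, a kinase of T cells, measured 3.88, 4.48 and 3.70 CPM in the WT and 6.14, 5.15 and 6.52 CPM in the KO (adjusted p = 0.313), above Ptprc in each library, and Rag1, which joins antigen receptor gene segments, ranged from 0.380 to 5.16 CPM. Cd3e, Ms4a1 and Nkg7 had 0 counts in all 6 libraries. The part of lymphocytes in the Ptprc values was not tested. Blood progenitor genes had a median of -0.11, and Cd34, which endothelium also makes, had the smallest p (log2 fold change -0.59, adjusted p = 0.203, and 0.035 without KO replicate 2).

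No marker of the tissue itself passed the threshold with 6 libraries in edgeR with the low count filter. At an unadjusted p under 0.05, 2 of 10 mesenchyme genes were higher, against 1069 of all 14233 genes. At the same level 4 of 8 epithelial genes were lower, against 6.69% of all genes. Of the epithelial genes, 1 passed with no filter (Krt15) and 3 with DESeq2 (Krt15, Krt8 and Cdh1), all lower in the KO. In these fits 93 and 314 of all 19262 genes were lower past the threshold. Among 10 mesenchyme genes the median was 0.077 and Osr1, a transcription factor of shelf mesenchyme, had the smallest p (adjusted p = 0.273). Among 8 epithelial genes the median was -0.61, beside -0.59 for the 10 macrophage genes, and Krt15, a basal keratin, had a log2 fold change of -1.46 (adjusted p = 0.0771, and 0.00405 without KO replicate 2). In the lists of muscle and of glia and neurons 0 passed. At an unadjusted p under 0.05, 1 of 7 muscle genes was higher and 2 of 8 glia and neuron genes were lower, beside the same shares of all genes. The smallest p among the muscle genes was that of Ttn (adjusted p = 0.319, edgeR). This gene of the sarcomere protein titin stood at 10160 CPM in KO replicate 2 and 66.3 to 191 CPM elsewhere.

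The genes that followed the mean of the 10 genes most closely over the 6 libraries were outside the 10 and the list of other macrophage genes. Among 13431 genes with a mean of at least 1 CPM, those most like the mean log2 CPM of the 10 genes were Cldn5, Ndufs1, Tagln, Calu, Socs5, Col9a2, Rtn4r and Wnt10a, with Pearson's r from 0.984 to 0.992 over the 6 libraries. These values describe likeness and share the libraries and their depth. They are the highest of 13431 ranked over only 6 libraries, so high values arise without a shared cell source. The r of a gene with few counts also holds its counting error. The cell source of the likeness was not tested. Cldn5 is a tight junction protein of endothelium, Ndufs1 a subunit of respiratory complex I and Tagln a protein of smooth muscle. The size of the change differed widely among them: Ndufs1 measured 82.3 to 85.3 CPM in the WT and 75.0 to 80.3 CPM in the KO, and Col9a2, a cartilage collagen, 66.9 to 122 CPM and 9.76 to 27.1 CPM. Of the 100 genes most like the mean, 0 were among the 10 genes themselves and 0 in the list of other macrophage genes. Lyve1 was the nearest of the 10, at r = 0.945, and Ptprc and Cd68 were the most distant, at r = 0.217 and r = -0.88.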

How the data were processed

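RNA from E14.25 palatal shelves was made into stranded mRNA libraries and sequenced as paired reads, per the labels' protocols. The authors deposited raw counts per gene symbol in 1 file for each library. The tools TopHat2, SAMtools and HTSeq and the build mm9 come from the submitters' processing notes. The annotation is not given in the sources used here, nor is the strand setting. Without the latter, counts of Csf1r and Cx3cr1, which overlap genes on the other strand, are uncertain. In GENCODE M21, Cx3cr1 also overlaps Gorasp1, Csrnp1 and Xirp1 on its own strand, which a strand setting does not separate. The 5 category lines, 33.6% to 65.8% of the listed pairs per library, were left out of library sizes and tests.

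Groups and replicate numbers came from the titles. Counts of libraries of 1 group differed beyond sampling noise (chi-square per degree of freedom 11.5 to 163), and were used as separate replicates as labelled, though the p-values may then measure technical spread. Counts were normalised by TMM, filtered by filterByExpr and compared with edgeR 4.0.16 (R 4.3.3, quasi-likelihood test, robust, no covariate), with Benjamini-Hochberg adjustment over all 14233 genes tested at 0.05. The script was tested on simulated data. Transcript lengths came from GENCODE M21 (mm10), and no coordinates of the counts' build were used. Ratios to Csf1r used a pseudocount of 0.5 counts. Alternatives were other size factors, DESeq2 1.42.0, limma 3.58.1 (voom), other filters, leaving out Rn45s and Lars2, leaving out each library, and the replicate number as a block.

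The 10 genes and the 15 other lists were chosen with earlier results of these data known. Named were all 10 genes, up to 4 genes past the threshold of each list or else the one with the smallest p, Hba-a1, Pecam1, Prox1, Epcam and Prrx1, and the 8 genes most like the mean of the 10. 1 gene that this rule names is not reported here. Other names were chosen after their values were seen.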

Additional observations from a re-analysis of the deposited data

How the results depend on the processing

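The sign of each of the 10 macrophage genes was the same in all 14 alternatives, and no gene lost or gained a call except Mrc1 and C1qc. Mrc1 passed with DESeq2 (adjusted p = 1.4e-05), without the low count filter (0.0347), without Rn45s and Lars2 (0.0462) and without KO replicate 2 (0.011), and did not pass in the other fits with no block (adjusted p up to 0.285, without WT replicate 2). The number of the 10 past the threshold was 0, and 1 with DESeq2, with no filter and without Rn45s and Lars2, and 0 to 1 with single libraries left out. Their median lay between -0.85 (without KO replicate 3) and -0.41 (without KO replicate 2). Of all genes, 76 of 14233 passed, and 458 of 19262 fitted with DESeq2. With no filter 113 of 19262 passed, and without Rn45s and Lars2 82 of 14236. With single libraries left out, 0 to 306 of 14432 to 14562 genes passed. These were 0 without WT replicate 2 or 3 (edgeR, 1102 and 1117 genes at an unadjusted p under 0.05) and 3 without WT replicate 4. There were 20 without KO replicate 1, 306 without KO replicate 2 and 11 without KO replicate 3. Of the genes in the other lists, 3 passed, 13 with DESeq2 and 0 to 9 with single libraries left out. The C1qb ratio to Csf1r of -0.18 ranged from -0.47 (without KO replicate 3) to 0.075 (without KO replicate 2), where its sign changed. The cause of these changes was not tested. Numbers 2 and 3 occur in both groups, but nothing in the labels pairs them, and the deviations from the group means correlated at 0.19 and -0.14 across genes. With the replicate block, 298 of 14233 genes passed, 2 of the 10 (Mrc1, adjusted p = 0.00184, and C1qc, 0.0491) and 7 of the other lists, F13a1, Krt15, Krt8 and Hbb-b1 among them, and Lyve1 stood at -2.57. Fewer than 20 counts per KO library limit Lyve1 and Aif1.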
